A study of Rattus norvegicus with 6 samples.

Results

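The genes described here are 9 core components of the JAK-STAT pathway in rat aortic vascular smooth muscle cells (RASMCs), namely the kinases Jak1, Jak2 and Tyk2, the transcription factors Stat2, Stat3, Stat5a, Stat5b and Stat6, and Il6st, which encodes the receptor subunit gp130. They were taken by symbol from the deposited table of read counts, which lists 22574 symbols, and all 9 were found and had enough counts to be tested. RASMCs are primary cells from the aorta of male Sprague-Dawley rats. The cells of 3 libraries received citrullinated histone H3 (called H3CIT in the study, at 0.03 μM) and double-stranded DNA (dsDNA, at 300 ng/ml), both of them components of extracellular traps. This group is called CitH3+dsDNA below. The other 3 libraries came from control cells that received bovine serum albumin (BSA). No genotype differed between the groups, and the time from challenge to harvest is not given in the sources used here. The study's reporting summary describes in vitro replicates as wells plated from cells of the same rat, so the spread between libraries may cover wells and library preparation and not animals.

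In this pathway a cytokine binds its receptor at the cell surface, and JAK kinases held on the inner side of the receptor phosphorylate each other, the receptor and then STAT proteins. Phosphorylated STATs pair up, enter the nucleus and bind DNA, where STAT3 turns on its own inhibitor Socs3 and the complex ISGF3, which holds STAT2 and IRF9, turns on interferon-stimulated genes. In vascular smooth muscle the branch through gp130 and STAT3 carries signals of IL-6, LIF and related cytokines and bears on proliferation and survival. Read counts measure RNA, so the values below say nothing of the phosphorylation of these proteins.

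Library totals lay between 17573905 and 18742395 counts, and 12591 genes passed the filter on low counts. Levels are given as counts, or as CPM, which are counts scaled to a common library size with TMM factors. The comparison used the quasi-likelihood test of edgeR (two-sided), p-values were adjusted by Benjamini-Hochberg over the 12591 genes, and "called" means that the adjusted p-value was under 0.05. Of all genes tested, 2.2% were called and 1.94% were called as higher in CitH3+dsDNA. In 19.1% of all genes tested, the CPM of the 3 CitH3+dsDNA libraries did not overlap those of the 3 controls. Smooth muscle markers were abundant in every library, with 5746 to 6303 CPM summed over 8 genes after CitH3+dsDNA and 8484 to 9225 CPM in controls. Of these 8 genes, Acta2, Tagln, Cnn1 and Smtn were lower, Myocd was higher, and Myh11, Lmod1 and Des were not called. The part of this shift in the results below was not tested. Macrophage markers summed to 72.3 to 74.5 CPM after CitH3+dsDNA and to 73.4 to 76.4 CPM in controls, mostly from Cd14 and Csf1r, with Itgam, Cd163 and Mrc1 at 0 or 1 count in every library, and none of the 5 genes tested was called. The 6 endothelial markers summed to 8.44 to 8.91 CPM against 9.81 to 10.5 CPM, and none of the 4 tested was called. None of the 5 T cell markers exceeded 11 counts. Of 4 fibroblast markers only Lum could be tested, and it was not called, with a summed level of all 4 genes of 1.32 to 1.71 CPM against 0.916 to 1.51 CPM. In RNA of a whole culture, fewer cells of a type and less RNA per cell cannot be told apart.

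Jak2 was the only member called. Its RNA was about 3-fold higher after CitH3+dsDNA, whereas the other 8 members were not called and had fitted log2 fold changes between -0.20 and 0.10. A share of 1 in 9 members called as higher stands beside the 1.94% of all genes tested. The median log2 fold change of the 9 members was -0.02, beside a median of -0.0013 over all genes tested. The median absolute log2 fold change was 0.08 for the members and 0.08 for all genes tested. Jak2 was also the only member whose groups did not overlap in CPM, beside the 19.1% of all genes.

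**Figure D1:**
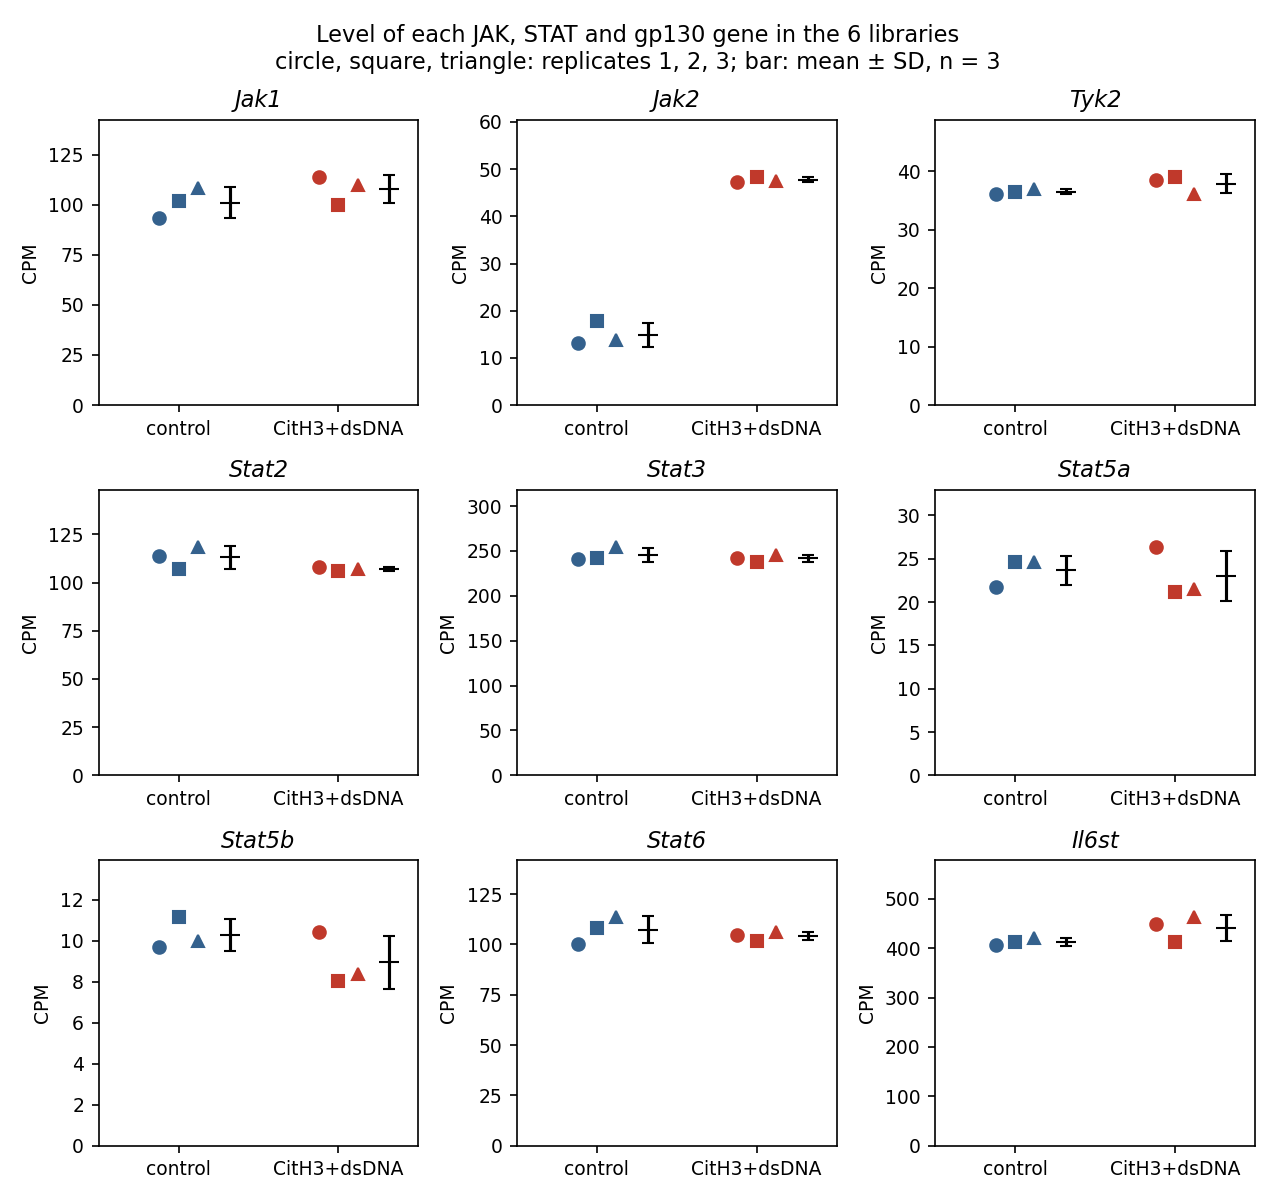
Level of each member in CPM (y axes start at 0 and differ between panels) in the 3 control and the 3 CitH3+dsDNA libraries, with each point a library and each bar the mean ± SD (n = 3). The Jak2 points lie between 13.1 and 17.8 CPM in controls and between 47.4 and 48.4 CPM after CitH3+dsDNA, while the groups of the other 8 genes overlap.

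Because Jak2 was the member called, the stretch before its start site is shown first. The 250 bases before the annotated start of rat Jak2 lie at chr1:236408655-236408904 on the plus strand of RefSeq's GRCr8 assembly, which is later than the build used for the counts, and were 81.2% G or C. Capitals mark the 39 CpG pairs in the stretch.
Jak2: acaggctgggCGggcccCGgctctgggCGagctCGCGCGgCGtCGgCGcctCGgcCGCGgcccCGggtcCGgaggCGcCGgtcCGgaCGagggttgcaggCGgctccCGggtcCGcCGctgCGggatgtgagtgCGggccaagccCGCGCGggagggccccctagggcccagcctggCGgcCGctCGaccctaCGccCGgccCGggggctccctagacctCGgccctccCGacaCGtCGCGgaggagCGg

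The full window of 300 bases, which reaches 50 bases past the start, held more CpG pairs for Jak2 (47) than 98.7% of 27457 rat windows of that length, whose median was 7. High CpG content was not particular to Jak2, since the Stat5b window held 53 pairs and the Stat5a window 32, and neither gene was called. Il6st was at the other end with 4 pairs. The windows of the 7 members with an entry (all but Jak1 and Tyk2) were searched on both strands for the letters of 2 motifs of the pathway. The first was the STAT site GAS (TTCNNNGAA, which is its own reverse complement), present in 8.68% of all windows, and the second the interferon site ISRE (GAAANNGAAA), present in 3.77%. None of the 7 member windows held the GAS letters, and only that of Il6st held the ISRE letters. Among the 8 other pathway genes that were called (described further on), the Irf9 and Socs1 windows held the GAS letters, and the Irf7 and Socs1 windows held the ISRE letters, the latter as 2 overlapping matches. The windows of the other called genes, Socs3, Bcl2l1, Hif1a, Igf1 and Bcl6, held neither motif, and the same was true of Jak2. The matches of Il6st, Irf9, Socs1 and Irf7 are shown with 10 flanking bases on each side and the match in capitals. They lie at chr2:45809983-45810012 (Il6st), chr15:33065727-33065755 (Irf9), chr10:5389368-5389396 (GAS of Socs1) and chr10:5389457-5389486 (first ISRE of Socs1), all on the plus strand of GRCr8, and at chr1:205800073-205800102 on the minus strand (Irf7). A match of letters is a description of the window and does not show that a factor binds there.
Il6st ISRE: ccagtcctggTTTCCCTTTCgttggttggt
Irf9 GAS: accacgtgatTTCTAGGAActgcacctcc
Socs1 GAS: agaagtcccaTTCAGGGAAggtgcgaggc
Socs1 ISRE: ggacttgccgGAAAGAGAAAccgaaagcgg
Irf7 ISRE: acagtttaggTTTCATTTTCccgagacgca

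Jak2 encodes the kinase of the receptors for interferon gamma, growth hormone, erythropoietin and, with JAK1 and TYK2, of gp130. It had 859, 853 and 863 counts in the CitH3+dsDNA libraries and 234, 330 and 256 counts in the controls. Every challenged library was above every control, and within the controls replicate 2 was the highest. The means were 47.8 ± 0.553 CPM (SD, n = 3) after CitH3+dsDNA and 14.9 ± 2.52 CPM (SD, n = 3) in controls. This was a log2 fold change of 1.68 (standard error 0.09, 95% interval 1.48 to 1.88, edgeR adjusted p = 6.85e-08), a fold of 3.2 with an interval from 2.79 to 3.68. By the size of the log2 fold change Jak2 ranked 90th of the 12591 genes, and by p-value it ranked 52nd. With each library left out in turn its log2 fold change stayed between 1.60 and 1.83. An exact two-sided permutation test of Jak2 gave p = 0.1, the smallest that 3 libraries against 3 allow.

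The counts of Jak2 in the CitH3+dsDNA libraries lay close together. Their variance was 0.0295 times their mean, and the ratio was 9.25 in the controls. Counting noise alone gives a ratio near 1 on average, but with 3 libraries the ratio of a single gene scatters widely. The ratio of 1 gene therefore cannot show a spread below counting noise. Of 9782 genes with a mean of at least 100 counts in the CitH3+dsDNA group, 1.46% had a ratio as low, and the median ratio was 1.73. Why the values lie so close was not tested.

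Of the genes next to Jak2 in the rat annotation, only Rcl1 could be tested, and it was not called. Rcl1 on one side, which encodes a protein of ribosomal RNA processing, had 447 to 535 counts and a log2 fold change of -0.02 (edgeR adjusted p = 0.950). Insl6 on the other side had 0 counts in every library and so gives no value to compare. No protein-coding gene overlapped Jak2.

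Jak1 encodes the kinase that most gp130, interferon and gamma-chain cytokine receptors need. It had 2066, 1763 and 1991 counts after CitH3+dsDNA against 1662, 1888 and 2008 in controls, so that the groups overlapped. Its log2 fold change was 0.09 (standard error 0.06, 95% interval -0.04 to 0.23, edgeR adjusted p = 0.523), which allows a change from -2.48% to 16.9%. It was 0.04 without control replicate 1 and 0.15 without control replicate 3, and neither fit called Jak1. Raver2 overlaps Jak1 in the annotation, but it had only 7 to 17 counts in any library.

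Tyk2, the kinase of the receptors for type I interferon, IL-12 and IL-23, had 697, 688 and 654 counts after CitH3+dsDNA. The controls had 644, 675 and 687 counts. Replicate 3 after CitH3+dsDNA, at 36.0 CPM, was the lowest of the 6 libraries and the other 2 challenged libraries were the highest, with a log2 fold change of 0.05 (standard error 0.06, 95% interval -0.07 to 0.17, edgeR adjusted p = 0.731). Jak3, the gamma-chain kinase known mainly from lymphoid cells, is not among the 9 members, and it had 632, 594 and 555 counts in CitH3+dsDNA and 607, 600 and 605 in control libraries (log2 fold change 0.0029, edgeR adjusted p = 0.993).

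The higher counts of Jak2 can also be put as its share among the 3 kinases, which restates the result above and is no further evidence of it. In the challenged libraries Jak2 made up 23.7%, 25.8% and 24.6% of the summed counts of Jak1, Jak2 and Tyk2, and in the controls 9.21%, 11.4% and 8.68%. The mean shares differed by 14.9 percentage points, with no overlap between the groups. The Jak1 share was 55.7% ± 2.05 (SD, n = 3) against 66.2% ± 1.56 (SD, n = 3), and the Tyk2 share 19.6% ± 1.13 (SD, n = 3) against 24.0% ± 1.18 (SD, n = 3). Since the 3 shares sum to the whole, the lower shares of Jak1 and Tyk2 follow from the higher counts of Jak2, and the mean CPM of both genes were slightly higher after CitH3+dsDNA. Counts of different genes also depend on transcript length, so the shares compare libraries and do not rank the kinases by level.

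**Figure D2:**
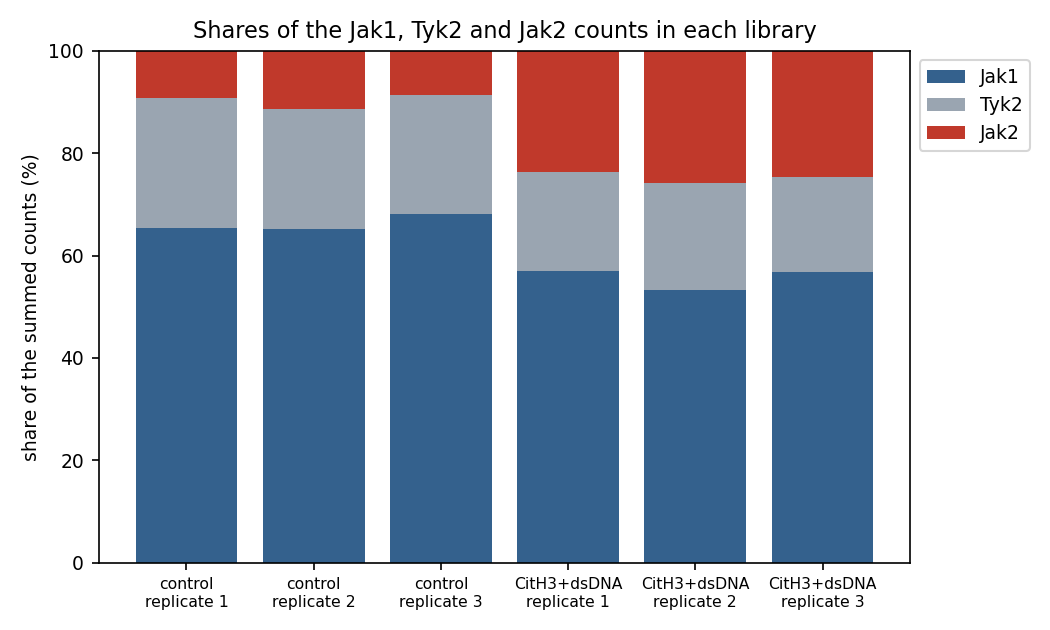
Stacked shares (%) of Jak1, Tyk2 and Jak2 in their summed counts, with 1 bar for each library, controls on the left and CitH3+dsDNA on the right. The Jak2 segment at the top covers 8.68% to 11.4% in controls and 23.7% to 25.8% after CitH3+dsDNA.

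Stat3 encodes the factor that gp130 cytokines activate, and its protein and phosphorylated form were a subject of the study. The RNA had 4388, 4196 and 4458 counts after CitH3+dsDNA and 4294, 4493 and 4723 in controls. All 6 libraries lay between 238 and 254 CPM. The fitted change was within -6.67% and 3.82% at 95% confidence (log2 fold change -0.02, edgeR adjusted p = 0.829), the narrowest interval of the 9 members.

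Stat2 encodes the subunit of ISGF3 that carries its activation domain. It had 1956, 1864 and 1941 counts after CitH3+dsDNA and 2032, 1982 and 2199 in controls. The log2 fold change was -0.08 (standard error 0.04, 95% interval -0.18 to 0.02, edgeR adjusted p = 0.459). The CitH3+dsDNA libraries spanned 106 to 108 CPM, and control replicate 2, at 107 CPM, fell inside that span.

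Stat6, the factor of IL-4 and IL-13 signaling, had 1903, 1795 and 1925 counts after CitH3+dsDNA and 1790, 2007 and 2107 in controls. Control replicate 1 was the lowest of the 6 libraries in CPM and control replicate 3 the highest. The log2 fold change was -0.04 (95% interval -0.15 to 0.06, edgeR adjusted p = 0.757).

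Stat5a and Stat5b encode near-identical factors of growth hormone, prolactin and IL-2 family signaling. The genes are neighbors on rat chromosome 10, and Stat3 lies next to Stat5a in the same row. Because their sequences are so alike, reads may have been shared between Stat5a and Stat5b in the counting, and each value is uncertain to that extent. Stat5a had 478, 373 and 390 counts after CitH3+dsDNA and 388, 458 and 457 in controls. Stat5b had 189, 142 and 152 counts after CitH3+dsDNA and 173, 207 and 186 in controls. In both genes CitH3+dsDNA replicate 1 stood above the other 2 challenged libraries and inside or above the control range.

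Neither gene was called. The log2 fold change of Stat5b, -0.20, was the largest after that of Jak2, with a 95% interval from -0.46 to 0.06 (edgeR adjusted p = 0.500), and that of Stat5a was -0.04, with an interval from -0.24 to 0.16 (edgeR adjusted p = 0.883). These were the widest intervals among the 8 members without a call, and that of Stat5b reached a change of -27.4%. Without CitH3+dsDNA replicate 1 the log2 fold change of Stat5b was -0.33, and without CitH3+dsDNA replicate 2 it was -0.13, with no call in either fit. Summed into 1 row, the 2 genes had 667, 515 and 542 counts in CitH3+dsDNA and 561, 665 and 643 in control libraries, which gave a fitted difference of -0.09 on the log2 scale (95% interval -0.28 to 0.10, edgeR adjusted p = 0.706). That difference ran from -0.20 without CitH3+dsDNA replicate 1 to -0.03 without CitH3+dsDNA replicate 2. The Stat5a share of the summed counts was 72.0% ± 0.385 (SD, n = 3) after CitH3+dsDNA and 69.7% ± 1.20 (SD, n = 3) in controls, without overlap (p = 0.1 in an exact two-sided permutation test, the smallest possible).

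Il6st encodes gp130, the shared signal-passing subunit of the receptors for IL-6, IL-11, LIF and oncostatin M. It had 8141, 7255 and 8398 counts after CitH3+dsDNA and 7244, 7644 and 7802 in controls. CitH3+dsDNA replicates 1 and 3 were above the controls in CPM, and replicate 2, at 412 CPM, lay among them. The log2 fold change was 0.10 (standard error 0.04, 95% interval 0.0042 to 0.19). The unadjusted p-value was 0.0418, a level under 0.05 that 13.9% of all genes tested reached, and the adjusted p-value from edgeR was 0.333. Its size depended on single libraries. The log2 fold change was 0.14 without CitH3+dsDNA replicate 2 (edgeR adjusted p = 0.0799) and 0.06 without CitH3+dsDNA replicate 3 (edgeR adjusted p = 0.668), and neither fit called the gene.

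**Figure D3:**
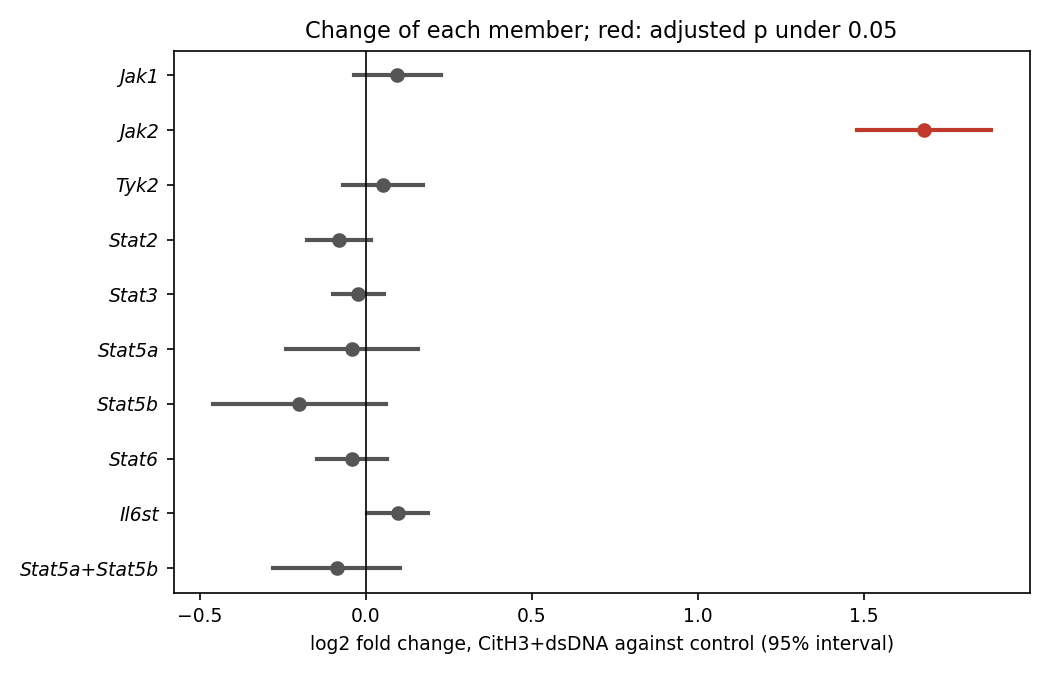
Log2 fold change of each member and of the summed Stat5a and Stat5b counts (x axis), with 95% intervals from edgeR's fit. Jak2, in red, lies at 1.68 (1.48 to 1.88), and the other points lie between -0.20 and 0.10, with intervals that include 0 except for that of Il6st.

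The rest of the pathway was described over 10 lists of genes, with 98 different genes beside the members. The table listed 96 of them, and 73 could be tested. Of these 73, 7 were called as higher and 1 as lower, and 65 were not called, beside the 2.2% of all genes tested that were called. Their median log2 fold change was 0.04, beside -0.0013 for all genes.

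Among 10 gp130-family ligands, 6 could be tested and none was called. Il6 had 157, 156 and 118 counts after CitH3+dsDNA and 145, 150 and 112 in controls (log2 fold change 0.11, edgeR adjusted p = 0.809). Lif, Ctf1 and Clcf1, which encode leukemia inhibitory factor, cardiotrophin-1 and a cardiotrophin-like cytokine, had log2 fold changes between -0.0053 and 0.06. Counts of Il11, Osm, Il27 and Ebi3 were 11 or fewer in each library, too few to show a change.

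Of 9 receptors of the gp130 family, 7 were tested, Il6st included, and none was called. The gene of the IL-6 receptor, Il6r, had 188, 177 and 211 counts after CitH3+dsDNA and 178, 120 and 145 counts without it. Its log2 fold change of 0.40 did not pass the test (edgeR adjusted p = 0.222). Osmr and Lifr, the partners of gp130 for oncostatin M and LIF, had log2 fold changes of 0.20 (edgeR adjusted p = 0.562) and 0.35 (edgeR adjusted p = 0.628). The interferon and IL-10 receptors gave 6 tested genes of 7 and no call, with log2 fold changes from -0.03 for Ifngr2 to 0.19 for Ifnlr1. Of 12 other JAK-coupled receptors only Il4r, Il2rg and Ghr could be tested, and none was called.

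Among the STATs and their partner IRF9, 7 of 8 genes were tested and Irf9 alone was called, beside 2.2% of all genes. Irf9 encodes the DNA-binding subunit of ISGF3. It had 430, 334 and 355 counts after CitH3+dsDNA and 165, 146 and 176 in controls, without overlap. The log2 fold change was 1.23 (standard error 0.11, edgeR adjusted p = 9.06e-06). Stat4 had 1 count in all libraries together.

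Of 22 genes listed as ISGF3 targets, 18 were tested. Irf9 itself and Irf7 were called as higher and the other 16 were not called, beside the 1.94% of all genes called as higher, and the median log2 fold change was 0.04. Irf7, the interferon regulatory factor of late interferon responses, had 159, 166 and 145 counts against 21, 38 and 27 (log2 fold change 2.48, edgeR adjusted p = 2.87e-06). By contrast Isg15, an interferon-induced ubiquitin-like protein, had 82, 83 and 106 counts against 79, 95 and 115 (log2 fold change -0.06, edgeR adjusted p = 0.909). The RNA helicase gene Ddx58 had a log2 fold change of -0.0017 (edgeR adjusted p = 0.998). Ifit3, Oas1a, Oas2 and Bst2 were not tested and reached no more than 11 counts.

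Of 20 inhibitors of the pathway, 19 were tested, 2 were called as higher and none as lower, beside the 1.94% of all genes called as higher. These were Socs1 and Socs3, whose products bind JAKs and block them. Socs3 had 989, 888 and 989 counts against 655, 559 and 588 (log2 fold change 0.70, edgeR adjusted p = 4.14e-05), and Socs1 had the largest change of all the pathway genes tested (log2 fold change 3.42, edgeR adjusted p = 7.00e-09). The 4 Pias genes, which encode nuclear inhibitors of STATs, had log2 fold changes between -0.12 and 0.16 without a call. The phosphatase genes Ptpn1, Ptpn2, Ptpn6 and Ptpn11 had log2 fold changes between -0.05 and 0.14 without a call. Socs5 had 844, 975 and 211 counts in controls and a log2 fold change of 0.34 (edgeR adjusted p = 0.710), which was -0.09 without control replicate 3.

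Of 18 genes listed as targets of STAT3, 15 were tested. Socs3 and Hif1a were called as higher, Bcl2l1 was called as lower and 12 were not called, beside the 2.2% of all genes that were called. Bcl2l1, which encodes the survival protein BCL-XL, had 2895, 2900 and 2876 counts after CitH3+dsDNA against 3708, 3763 and 3501 in controls (log2 fold change -0.31, edgeR adjusted p = 0.000628). Hif1a, the gene of hypoxia-inducible factor 1 alpha, had a log2 fold change of 0.17 (edgeR adjusted p = 0.0453). It was called in 6 of 15 alternatives, with an adjusted p-value from 0.0215 to 0.223. Its call was lost with each of the 6 libraries left out in turn. The call was also lost with scaling by DESeq2 size factors (edgeR adjusted p = 0.0510) or by upper quartiles (edgeR adjusted p = 0.0916). The log2 fold changes of the 12 genes without a call ran from -0.58 for Bcl3 to 0.15 for Vegfa. The edgeR adjusted p-value was 0.336 for Bcl3, which had only 21 to 38 counts, and 0.149 for Vegfa. Among these 12, Myc, Ccnd1, Mcl1, Junb and Timp1 had log2 fold changes between -0.08 and 0.06. The 7 listed targets of STAT5, 3 of them shared with the STAT3 list, were all tested. Of these, 2 were called as higher and 1, the shared Bcl2l1, as lower, beside the 2.2% of all genes that were called. Igf1, which encodes insulin-like growth factor 1, had 78, 77 and 69 counts against 22, 23 and 22 (log2 fold change 1.77, edgeR adjusted p = 0.000146). Bcl6, a transcriptional repressor gene, had a log2 fold change of 0.47 (edgeR adjusted p = 0.0334) and was called in 9 of 15 alternatives, with an adjusted p-value from 0.0063 to 0.117. It lost its call without each of the libraries except control replicate 1. The best-known STAT5 targets Cish (log2 fold change -0.02, edgeR adjusted p = 0.981) and Socs2 (log2 fold change 0.62, edgeR adjusted p = 0.189) were not called.

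**Figure D4:**
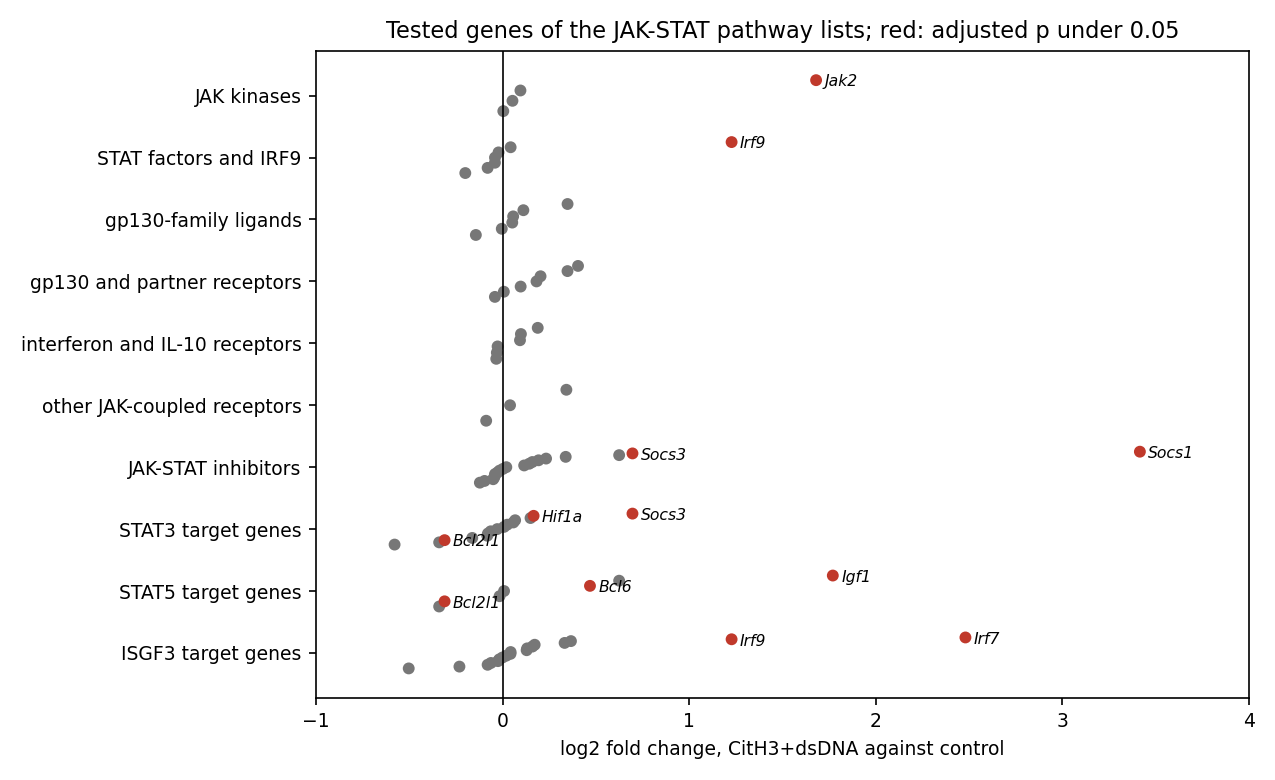
Log2 fold change (x axis) of every tested gene of the 10 pathway lists (rows), with called genes in red and named. A gene in 2 lists is drawn in both. Most points lie near 0, and the called genes run from Bcl2l1 at -0.31 to Socs1 at 3.42.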

How the data were processed

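RNA of RASMCs was sequenced in 6 libraries, 3 of the CitH3+dsDNA group and 3 controls, grouped by their titles. The authors made stranded mRNA libraries, mapped reads to Rnor6.0 with TopHat and counted them with HTSeq, and they deposited raw counts per gene symbol. The submitters' processing notes list TopHat2 2.1.1, Cufflinks 2.2.1 and Cuffdiff. The strand setting of the counting is not given in the sources used here. The doses come from the study's methods. No symbol was blank.

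After edgeR's filterByExpr and TMM scaling, glmQLFit and glmQLFTest (edgeR 4.0.16, R 4.3.3) gave the tests. Standard errors are the coefficient without shrinkage over the root of F, and 95% intervals use the fit's total degrees of freedom. They cover the spread between libraries. For the summed counts of Stat5a and Stat5b the whole table was refitted. Alternatives were other scalings, DESeq2 1.42.0, limma-voom (limma 3.58.1), 2 filters, robust dispersion, a block for the replicate number and leaving out each library in turn. The fits were tested on simulated data. In pairs of replicates within a group, chi-square per gene was 3.31 or more, so all were kept as separate samples.

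Members, lists and the rule for named genes (each member, and up to 6 called genes per list by p-value) were chosen with earlier results of these data known. Genes without a call were named after their values were seen. RefSeq's GRCr8 gave 9 of 9 members a neighbor and 7 a promoter window, the first listed per gene, and no length for levels between genes. The result of 1 listed pathway gene is not reported here.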

Additional observations from a re-analysis of the deposited data

How the results depend on the processing

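All 15 alternatives called Jak2 and no other member, with log2 fold changes of Jak2 between 1.60 and 1.83. A sign turned only in members without a call. With each library left out Stat3 ran from -0.038 to 0.0031, Stat5a from -0.15 to 0.012, Stat6 from -0.088 to 0.00052, Tyk2 from 0.027 to 0.085 and Stat2 from -0.12 to -0.046, Stat3 and Stat6 turning without control replicate 3 and Stat5a without CitH3+dsDNA replicate 2 or 3. Same-numbered libraries did not deviate together (correlations of deviations across genes -0.0458, 0.0045 and 0.0355), and the replicate block gave 212 called genes with Jak2 at 1.69. In that fit Hif1a (adjusted p = 0.0997) and Bcl6 (0.0613) were not called. Over all genes, 277 were called, 244 higher and 33 lower. Leaving out each library gave 164 to 357 calls, 147 to 300 higher and 17 to 57 lower, with 164 without CitH3+dsDNA replicate 1, 184 without control replicate 1 and 57 lower calls without control replicate 3. Lower calls were 58 with no filter and 50 with robust dispersion. The cause was not tested. Depth limits the 23 listed pathway genes in the table that could not be tested.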

Other observations

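By likeness of profile, the 3 genes nearest to Jak2 over the 6 libraries, as the smallest Euclidean distance between log2 CPM values centered on each gene's mean, were Ddx1, Fgfr2 and Arrb1, at distances of 0.278, 0.287 and 0.332. All 3 were higher after CitH3+dsDNA, as any close neighbor of Jak2 by this measure has to be. Fgfr2, a fibroblast growth factor receptor gene, had 898, 888 and 899 counts after CitH3+dsDNA and 232, 332 and 212 in controls, beside 859, 853 and 863 and 234, 330 and 256 for Jak2. In both genes control replicate 2 was the highest control and the challenged libraries spanned at most 11 counts. Ddx1, an RNA helicase gene, had 3856, 3786 and 3816 counts against 1100, 1211 and 1087 (log2 fold change 1.78, edgeR adjusted p = 4.86e-11). Arrb1, the gene of beta-arrestin 1, had 1856, 1767 and 2062 counts against 567, 666 and 675 (log2 fold change 1.60, edgeR adjusted p = 2.26e-09). The nearest genes to Stat3 were Slc35f6, Mfhas1 and Lamb2, at distances of 0.0215, 0.0220 and 0.0240, none of them called, with log2 fold changes between -0.03 and -0.0089. Distances this small are common to genes that vary little, and nothing about function follows from them.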
